A study of Homo sapiens with 8 samples.

Results

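Mitochondrial complex I (NADH:ubiquinone oxidoreductase) is described here through 36 of its nuclear-encoded subunit genes, out of 20565 annotated genes in the tables. The members are the annotated genes whose symbol is NDUFA, NDUFB, NDUFC, NDUFS or NDUFV followed by a number, with 1 accessory subunit gene left out and not analysed here. That rule uses no measured value, although it was set with earlier results of these data known. The members comprise 7 core subunits of the peripheral arm, 9 accessory subunits of the peripheral arm, 8 of the proximal membrane arm, 11 of the distal membrane arm, and NDUFA4, which is now assigned to cytochrome c oxidase. Together they have 1625 transcript models in the tables, of which 1097 had at least 1 read.

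Complex I oxidises NADH, passes its electrons through a flavin and a chain of iron-sulfur clusters to ubiquinone, and pumps protons across the inner mitochondrial membrane. The peripheral arm reaches into the matrix and carries the redox centres. The membrane arm is built around subunits encoded in mitochondrial DNA and surrounded by accessory subunits, which come from nuclear genes, are imported, and are joined stepwise by assembly factors. The respiratory chain is used to different extents by different cell types, and these genes are often treated as a coordinated set.

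Native RNA of 3 established human cell lines was read directly on Oxford Nanopore instruments, starting from total RNA. GM12878 (3 libraries) is a B-lymphoblastoid line, HepG2 (3 libraries) is a liver cancer line, labelled hepatocellular carcinoma, and K562 (2 libraries) is a leukaemia line with erythroid features. No line carried a treatment or an engineered change, and whether the libraries of a line were grown as separate cultures is not stated, so each p-value measures library-to-library spread, which may be technical. The labels give K562 the same cell type as GM12878, lymphoblastoid, whereas the K562 libraries had fetal and embryonic globin and GATA1 reads and 0 reads for the B cell genes CD79A, MS4A1 and HLA-DRA.

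Read totals were 70374 to 461497 per library, and the 36 members took 692 to 3334 of these reads. The third GM12878 library was the shallowest. The K562 libraries differed from each other more than those of any other pair within a line, with a chi-square per degree of freedom of 4.65 over genes, against 1.35 to 2.73 for the other pairs. Levels below are CPM, read counts relative to the size of the library, after scaling by the trimmed mean of M-values (TMM). All 36 members passed the filter on low counts, with 4778 genes tested in all, and 35 had a read in every library.

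With TMM scaling, the summed level of the members was highest in K562 and overlapped between the other lines. Their summed CPM was 9347, 10181 and 9729 in GM12878, 9372, 9093 and 10853 in HepG2, and 10959 and 11502 in K562. Both K562 libraries lay above all others, by little for the first, and the GM12878 and HepG2 ranges overlapped. As a share of all reads, with no TMM scaling, the members took 0.967% ± 0.0375 (SD) in the 3 GM12878 libraries, 0.743% ± 0.0933 in the 3 of HepG2 and 1.12% ± 0.0840 in the 2 of K562, so HepG2 was then lowest. The position of HepG2 therefore depended on the scaling, whose factors were 0.806 to 0.871 in HepG2 and 1.04 to 1.20 in the other lines.

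Among the roles, the core subunits summed to 2290 and 2812 CPM in K562, whereas GM12878 ranged from 1676 to 1785 and HepG2 from 1673 to 1820. K562 was highest in this role also without TMM scaling, at 2553 ± 91.2 unscaled CPM (SD, n = 2) against 1742 ± 86.9 and 1338 ± 102 (n = 3 each). Accessory subunits of the peripheral arm were lowest in HepG2, at 1436, 1437 and 1640 CPM, with 2107 to 2348 in GM12878 and 1987 to 2050 in K562. HepG2 was lowest here also without the scaling, where it stood at 1153 ± 125 unscaled CPM, GM12878 at 2225 ± 154 and K562 at 2039 ± 267. Of the TMM-scaled sums, NDUFS6 alone made up 237, 285 and 291 CPM in HepG2 and 607, 605 and 675 in GM12878. By sign of the log2 difference, 6 of the 9 genes were lower and 3 higher in HepG2 than in GM12878. Proximal membrane arm subunits were at 2641, 2742 and 3324 CPM in HepG2, 2167, 2438 and 2193 in GM12878 and 2628 and 2922 in K562. Without the scaling HepG2 was at 2227 ± 354 and GM12878 at 2269 ± 121, and K562, at 2855 and 2721, was above every other library. The TMM-scaled sums of this role held 545, 645 and 873 CPM of NDUFC2 alone in HepG2 and 193, 186 and 267 in GM12878. By sign, 5 of the 8 genes were higher and 3 lower in HepG2 than in GM12878. The distal membrane arm overlapped between all lines, from 2784 to 3432 CPM, whereas without the scaling HepG2 was below both other lines, at 2352 ± 284 against 2974 ± 190 and 3323 ± 575.

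**Figure D1:**
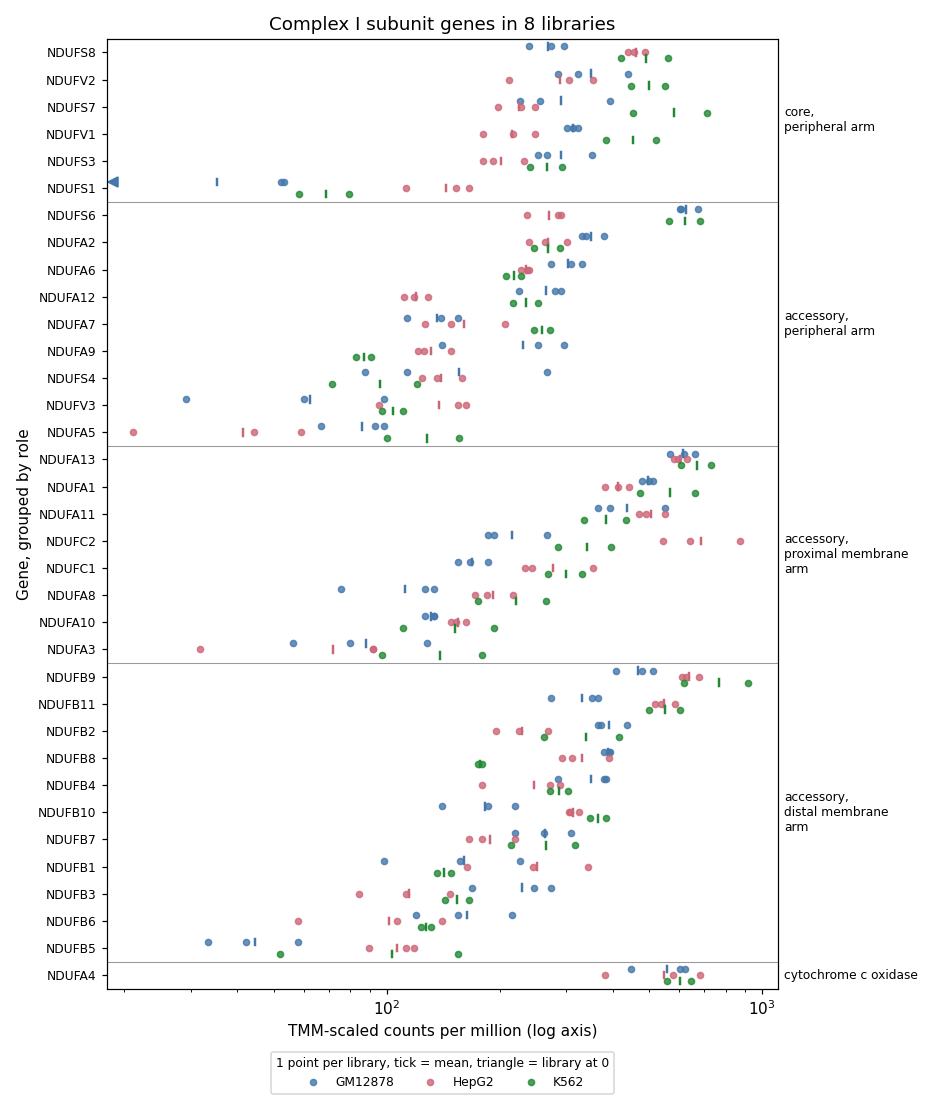
TMM-scaled CPM (log axis) of 35 of the genes, grouped by role, with 1 point per library, a tick at each line's mean and a triangle for the library with 0 reads of NDUFS1. For 6 of the 36 members no pair of lines is fully apart. NDUFC2 and NDUFS1 are set to the right in HepG2, NDUFS6 and NDUFA12 to the left in HepG2, and NDUFB8 to the left in K562.

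Single members spanned nearly an order of magnitude. NDUFA13, a membrane arm subunit also known as GRIM-19, had the highest mean over the 8 libraries, 625 CPM, and ranged from 567 to 663 in GM12878, from 581 to 630.2 in HepG2 and from 609.9 to 731 in K562. Its ranges overlapped between all 3 lines. NDUFB9, a distal membrane arm subunit, followed with 607 CPM, then NDUFA4 with 565, the zinc-binding subunit NDUFS6 with 493 and NDUFA1 with 483. The neighbours NDUFA13, NDUFB9 and NDUFA4 overlapped in their libraries. NDUFA5, of the peripheral arm, was lowest at 79.8 CPM, near NDUFB5 at 82.6 and NDUFS1 at 84.4. Per kilobase of each gene's most-read known transcript, NDUFB9 ranked first at 853 CPM per kilobase and NDUFS1 last at 7.14. That NDUFS1 transcript is 11819 bases long but held only 11 of the gene's 161 reads, and the gene's most-read model has 842 bases. Direct RNA reads are counted once per molecule, so a level per length is a different quantity from the number of molecules.

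In HepG2 against GM12878, 7 of 36 members were called (adjusted p under 0.05 and at least a 2-fold difference, edgeR's quasi-likelihood test), 4 higher and 3 lower. Over all genes tested, 49.1% were called, 28% higher and 21.1% lower. The median log2 difference was -0.13 over the members and 0.02 over all genes, and the median size of the difference regardless of sign was 0.52 over the members and 1.06 over all genes. With no fold threshold 15 members passed, against 55.6% of all genes, and the libraries of the 2 lines did not overlap for 21 members, against 63.1% of all genes.

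NDUFC2, an accessory subunit of the proximal membrane arm, had 193, 186 and 267 CPM in GM12878, 545, 645 and 873 in HepG2 and 396 and 286 in K562. Every HepG2 library lay above every other library. It was higher in HepG2 than in GM12878 by a log2 difference of 1.72 ± 0.25 (SE, adjusted p = 4.63e-08), a call that held under all 16 alternatives run. Here and below, the alternatives counted include dropping the fold threshold, which cannot lose a call. A readthrough locus on the same strand, NDUFC2-KCTD14, had 11 reads in all libraries against 767 for NDUFC2.

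NDUFS1, the largest core subunit, which holds iron-sulfur clusters of the electron path, had 53.3, 52.4 and 0 CPM in GM12878, 113, 153 and 166 in HepG2 and 58.4 and 79.3 in K562. All HepG2 libraries were above the rest. For the GM12878 library at 0, 3 counts would correspond to 42.2 CPM. The log2 difference between HepG2 and GM12878 was 1.74 ± 0.42 (adjusted p = 0.000433), from 17 reads in GM12878 and 112 in HepG2. It held under all 15 alternatives that could be fitted. EEF1B2, a gene with 2815 reads, overlaps NDUFS1 on the opposite strand.

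NDUFB5, of the distal membrane arm, had 33.3, 58.2 and 42.2 CPM in GM12878, 113, 89.8 and 118 in HepG2 and 51.9 and 155 in K562. It was called higher in HepG2 by 1.23 ± 0.43 (adjusted p = 0.0126), but not without the first GM12878 library (adjusted p = 0.0932). NDUFV3, an accessory subunit of the NADH-binding module, had 60.0, 29.1 and 98.4 CPM in GM12878 and 163, 95.1 and 155 in HepG2. The lowest HepG2 library was below the highest of GM12878, and the log2 difference of 1.35 ± 0.40 (adjusted p = 0.00315) fell to 0.87 (adjusted p = 0.108) without the second GM12878 library. Both calls were also lost with library totals as the only scale, and that of NDUFB5 with upper-quartile factors.

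NDUFS6 had 607, 605 and 675 CPM in GM12878, 237, 285 and 291 in HepG2 and 681 and 566 in K562. HepG2 was separate from both other lines, which overlapped. The log2 difference was -1.21 ± 0.22 against GM12878 (adjusted p = 5.08e-06), and K562 was higher than HepG2 by 1.20 ± 0.23 (adjusted p = 1.99e-05). Both calls held under every alternative run, 16 and 15 in number.

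NDUFA12, a peripheral arm subunit related to the assembly factor NDUFAF2, had 280.0, 291 and 225 CPM in GM12878, 118, 111 and 129 in HepG2 and 253 and 217 in K562. Here too only the HepG2 libraries stood apart. The difference from GM12878 was -1.17 ± 0.27 (adjusted p = 0.000248), and among 16 alternatives the call was lost only when known transcripts alone were counted, at -0.86. K562 exceeded HepG2 by 0.95 ± 0.29 (adjusted p = 0.00489), under the fold threshold. NDUFB3, of the distal membrane arm, had 247, 273 and 169 CPM in GM12878, 113, 84.5 and 147 in HepG2 and 143 and 166 in K562. Its log2 difference between HepG2 and GM12878, -1.03 ± 0.29 (adjusted p = 0.00217), lay so close to the fold threshold that 9 of 16 alternatives lost the call, among them those without the first or second library of either line. The values ran from -1.42 to -0.82.

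In K562 against GM12878, 5 of 36 members were called, 3 higher and 2 lower, where 28.7% of all genes tested were called, 13.9% higher and 14.8% lower. The members' median log2 difference was 0.17, with a median size of 0.52, and all genes had 0 and 0.71. Libraries did not overlap for 18 members, against 48.8% of all genes. With no fold threshold 11 members passed, against 31.8% of all genes. This comparison shares the GM12878 libraries with the one above.

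NDUFS7, a core subunit with the iron-sulfur cluster next to the quinone site, had 227, 256 and 394 CPM in GM12878, 198, 248 and 228 in HepG2 and 454 and 714 in K562. Both K562 libraries were above all others. K562 was higher than GM12878 by 1.08 ± 0.27 (adjusted p = 0.00108) and higher than HepG2 by 1.40 ± 0.25 (adjusted p = 5.80e-06). Without the second K562 library, which had the 714 CPM, the difference from GM12878 was 0.75 and no longer called, while the difference from HepG2 held under all 15 alternatives.

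NDUFA8, a cysteine-rich subunit on the intermembrane space side, had 133, 75.6 and 127 CPM in GM12878, 172, 185 and 217 in HepG2 and 175 and 266 in K562. The K562 libraries were above those of GM12878 and overlapped HepG2. Its log2 difference from GM12878 was 1.06 ± 0.34 (adjusted p = 0.0123), which dropped to 0.73 (adjusted p = 0.209) without the second K562 library and 0.85 (adjusted p = 0.107) without the second GM12878 library, and DESeq2 gave an adjusted p of 0.0560. NDUFB5 was called higher in K562 by 1.29 ± 0.47 (adjusted p = 0.0276) although its libraries overlapped. Without the second K562 library the difference was 0.21 (adjusted p = 0.899), and the call was also lost without the first (adjusted p = 0.118) or the third (adjusted p = 0.0503) GM12878 library and with DESeq2 (adjusted p = 0.125).

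NDUFA9, which sits where the peripheral arm meets the membrane arm, had 253, 297 and 141 CPM in GM12878, 121, 148 and 125 in HepG2 and 90.8 and 82.8 in K562. K562 was lower than every other library. The log2 difference from GM12878 was -1.49 ± 0.35 (adjusted p = 0.000588) and held under 15 of 15 alternatives. NDUFB8, a distal membrane arm subunit often used as a protein marker of assembled complex I, had 393, 389.8 and 379.6 CPM in GM12878, 293, 312 and 391 in HepG2 and 175 and 179 in K562. It was lower in K562 than in GM12878 by a log2 difference of -1.13 ± 0.28 (adjusted p = 0.00121), and it was below all HepG2 libraries as well, at -0.90 ± 0.27 (adjusted p = 0.00476), under the fold threshold. The call against GM12878 was lost only with no filter on low counts, at -0.94.

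In K562 against HepG2, 5 of 36 members were called, 4 higher and 1 lower, where 44.1% of all genes tested were called, 17.4% higher and 26.7% lower. The median log2 difference was 0.18 over the members, with a median size of 0.42, and -0.07 over all genes, with a median size of 0.95. Libraries did not overlap for 18 members, against 64% of all genes. With no fold threshold 12 members passed, against 50.4%. Besides NDUFS6 and NDUFS7, the higher members were NDUFV1 and NDUFA5.

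NDUFV1, the core subunit that binds NADH and the flavin, had 313, 303 and 323 CPM in GM12878, 181, 248 and 217 in HepG2 and 383 and 521 in K562. The 3 lines did not overlap, in the order HepG2, GM12878, K562. K562 exceeded HepG2 by 1.10 ± 0.25 (adjusted p = 0.000246), a value of 0.83 and no call without the second K562 library. NDUFA5 had 66.7, 93.1 and 98.4 CPM in GM12878, 44.4, 21.1 and 59.0 in HepG2 and 156 and 100 in K562, from 121 reads in all. K562 exceeded HepG2 by 1.496 ± 0.40 (adjusted p = 0.00135), under all 14 alternatives that could be fitted. With known transcripts alone, which held 44 of its 121 reads, NDUFA5 did not pass the filter. NDUFC2 was lower in K562 than in HepG2 by a log2 difference of -1.03 ± 0.25 (adjusted p = 0.000577), which missed the fold threshold in 7 of 15 alternatives. These included the fit without the third HepG2 library, at -0.88, and the fit without the second K562 library, at -0.81.

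Across the 3 comparisons, 13 members were called at least once and 23 never, where 65.5% of all genes tested were called at least once. NDUFC2, NDUFS6, NDUFS7 and NDUFB5 were called in 2 comparisons and no member in all 3, against 41.5% and 7.47% of all genes. Without the second K562 library 3 members were called against GM12878, namely NDUFA9, NDUFB8 and NDUFB10, where 22% of all genes were called. Against HepG2 5 were called, where 40% of all genes were, and 3 of these were called with that library as well (NDUFS6, NDUFS7 and NDUFA5). Some members passed the adjusted p of 0.05 with less than a 2-fold difference. In HepG2 against GM12878 these were NDUFA8 (0.82), NDUFS8 (0.75), NDUFB10 (0.73), NDUFB11 (0.73) and NDUFC1 (0.69) on the higher side and NDUFA5 (-0.95), NDUFA9 (-0.89) and NDUFB2 (-0.77) on the lower. In K562 against GM12878 they were NDUFA7 (0.97), NDUFB10 (0.95), NDUFS8 (0.86), NDUFC1 (0.79), NDUFB11 (0.75) and NDUFB9 (0.68), all higher. In K562 against HepG2 they were NDUFA12 (0.95), NDUFA3 (0.93), NDUFV2 (0.76) and NDUFA7 (0.69), higher, and NDUFS1 (-0.999), NDUFB8 (-0.90) and NDUFB1 (-0.82), lower.

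**Figure D2:**
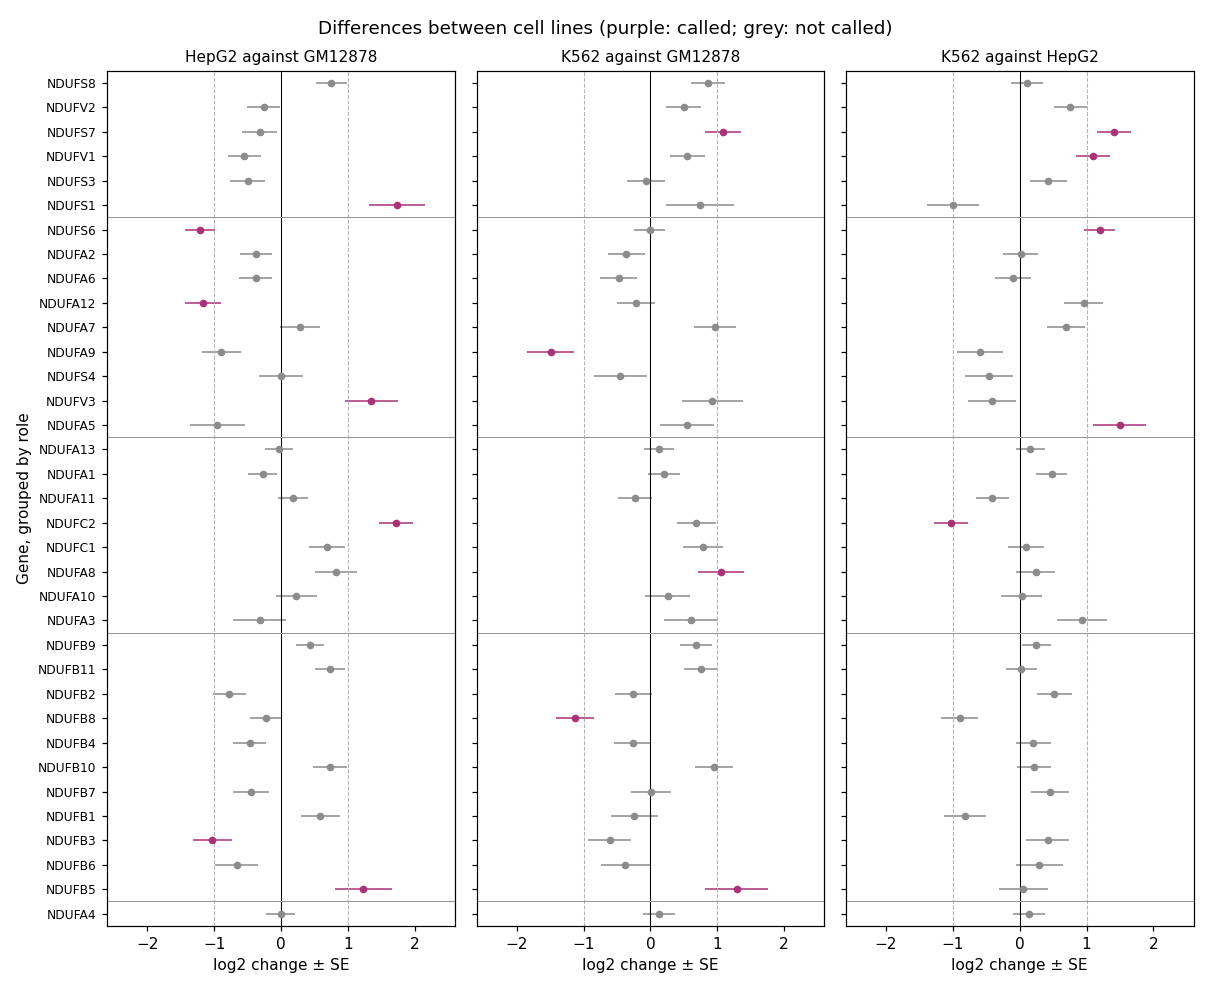
Log2 differences with standard errors for 35 of the genes in the 3 comparisons, grouped by role as in the plot of levels, with dashed lines at the 2-fold threshold. Purple points are the 7, 5 and 5 calls, and the points lie between -1.49 and 1.74.

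The scaling moved the balance of higher and lower members in the comparisons with HepG2. With TMM, 16 members had a positive and 20 a negative log2 difference in HepG2 against GM12878. With library totals as the only scale these were 11 and 25, the median was -0.53, and 2 members were called higher and 7 lower. All genes moved as well, with a median of -0.33 and 42.9% of their calls higher, against 57.0% with TMM. Upper-quartile factors gave a member median of -0.40 beside -0.20 over all genes. In K562 against HepG2 the member median was 0.18 with TMM, 0.49 with upper-quartile factors and 0.58 with library totals, beside -0.07, 0.15 and 0.24 over all genes. Of all genes called in that comparison 39.4% were higher in K562 with TMM and 55.4% with library totals. K562 against GM12878 stayed between 0.16 and 0.20 for the members under TMM, the DESeq2 size factors, upper-quartile factors and library totals.

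The mitochondrially encoded partners of these subunits were read less uniformly. Of 7 mitochondrially encoded subunit genes 6 had values, MT-ND4L being absent, and 4 passed the filter. Those 4 had median log2 differences of 0.80 in HepG2 against GM12878, -1.51 in K562 against GM12878 and -2.48 in K562 against HepG2. MT-ND1, a subunit of the quinone module, had 327, 204 and 70.3 CPM in GM12878, 479.7, 502 and 273 in HepG2 and 26.0 and 41.4 in K562. K562 was below all other libraries. The log2 difference was -2.59 ± 0.49 against GM12878 (adjusted p = 0.000100) and -3.53 ± 0.45 against HepG2 (adjusted p = 1.36e-07). MT-ND5, a proton-pumping subunit, had 52 to 66 CPM in K562, 169 to 227 in GM12878 and 343 to 660.4 in HepG2, with no overlap. It was the 1 gene of this list called between HepG2 and GM12878, at 1.29 ± 0.26 (adjusted p = 3.58e-05), where 49.1% of all genes tested were called. Against HepG2, K562 was called lower for 3 of the 4, where 26.7% of all genes tested were. Against GM12878 it was called lower for 2, where 14.8% of all genes were, with the other differences also negative. Libraries of a line spread widely on this list: in K562, MT-ND4 was at 19.5 and 283 CPM and MT-ND2 at 19.5 and 79.3, and the summed list was at 136 and 483, while in GM12878 MT-ND1 ranged from 70.3 to 327 CPM and MT-ND2 from 14.1 to 153. The K562 medians rest on these values, and whether RNA handling differed between libraries was not tested.

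Of 19 assembly factor genes 11 were tested, and most did not pass. In HepG2 against GM12878 3 were called, in K562 against GM12878 1 and in K562 against HepG2 1. Over all genes tested 49.1%, 28.7% and 44.1% were called. NDUFAF3, an early assembly factor, was at 37.4 ± 12.4 CPM (SD) in GM12878, 123 ± 24.5 in HepG2 and 92.6 ± 30 in K562. It was called higher than in GM12878 in HepG2, by 1.76 ± 0.43 (adjusted p = 0.000449), and in K562, by 1.41 ± 0.48 (adjusted p = 0.0201). NDUFAF4 was called lower in HepG2 than in GM12878, at -1.02 ± 0.43 (adjusted p = 0.0409), and higher in K562 than in HepG2, at 1.27 ± 0.43 (adjusted p = 0.0109), where its K562 libraries stood far apart at 156 and 58.6 CPM. COA1 was the other gene called, lower in HepG2 than in GM12878 at -1.27 ± 0.41 (adjusted p = 0.00783). NDUFAB1, the acyl carrier protein that is also a subunit, was at 483 ± 50.4, 619.7 ± 34.6 and 438 ± 77.9 CPM in GM12878, HepG2 and K562 and was not called. NDUFA4L2, a paralogue of NDUFA4 known from hypoxia, had 0 reads in every library.

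The members' reads fell on annotated transcripts more often than those of other genes. Known transcripts held 67.5% ± 1.61 (SD) of member reads in the 3 GM12878 libraries, 64.3% ± 2.02 in the 3 of HepG2 and 66.2% ± 0.129 in the 2 of K562. For all other annotated genes the shares were 45% ± 0.718, 39.3% ± 1.93 and 47.5% ± 0.0999. The lowest member share of any library, 63.2%, was above the highest share of other genes, 47.6%. Both shares pool reads over genes, so genes with many reads weigh most, and the other genes were not matched for exon number or length. Between the lines, the member shares of single libraries overlapped. Models of the class that the tables call genomic held 0.162% to 0.912% of member reads in the means of the lines, against 9.88% to 11.6% for other genes. Models that match only the 3′ part of an annotated transcript held 8.89%, 11.8% and 8.11% of member reads in GM12878, HepG2 and K562, against 14.7%, 21.9% and 14.7%. Models with an unannotated splice site went the other way, at 12.1%, 9.59% and 11.2% against 8.54%, 5.36% and 6.42%.

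The high share was not common to all members. By role, known transcripts held 26.9% of core subunit reads, against 68.6% to 79.0% in the accessory groups and 78.0% for NDUFA4. In no library did the core share exceed 35.0%. Single genes departed from their role, with 70.7% in the core subunit NDUFS3. Shares in the accessory subunits NDUFC1, NDUFA10, NDUFA9 and NDUFA5 ran from 2.39% to 36.4%. The 36 members ran from 0.142% to 97.7%, with 26 over 50% and 4 under 10%. NDUFB11, a distal membrane arm subunit, was highest with 97.7% of 813 reads, then NDUFA6 with 95.1% of 406 and NDUFB1 with 94.4% of 339. Among the lowest were NDUFS8 with 1 of 706 reads, NDUFC1 with 10 of 418 and NDUFS1 with 13 of 161. Genes with more exons in their most-read known transcript had lower known shares (Pearson's r = -0.72, Spearman's rho = -0.75 over 36 genes, which share the same libraries and are not independent replicates).

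In NDUFS8 and NDUFC1 most reads were on models of a new combination of annotated splice sites, 59.1% and 70.6%, whereas in NDUFS1 54.0% were on incomplete matches to an annotated transcript. In NDUFC1, a small membrane arm subunit, a 4-exon model of 444 bases had 264 reads, 69.1% of the gene's reads in GM12878, 58.8% in HepG2 and 67.4% in K562. Over the 36 members, 143 of 309 GENCODE transcripts have a row and 113 of these had reads, but how far this sets the known shares was not tested. In NDUFB9 the known 4-exon transcript of 711 bases had 416 reads, and a 4-exon model of 710 bases classed as having an unannotated splice site had 352.

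**Figure D3:**
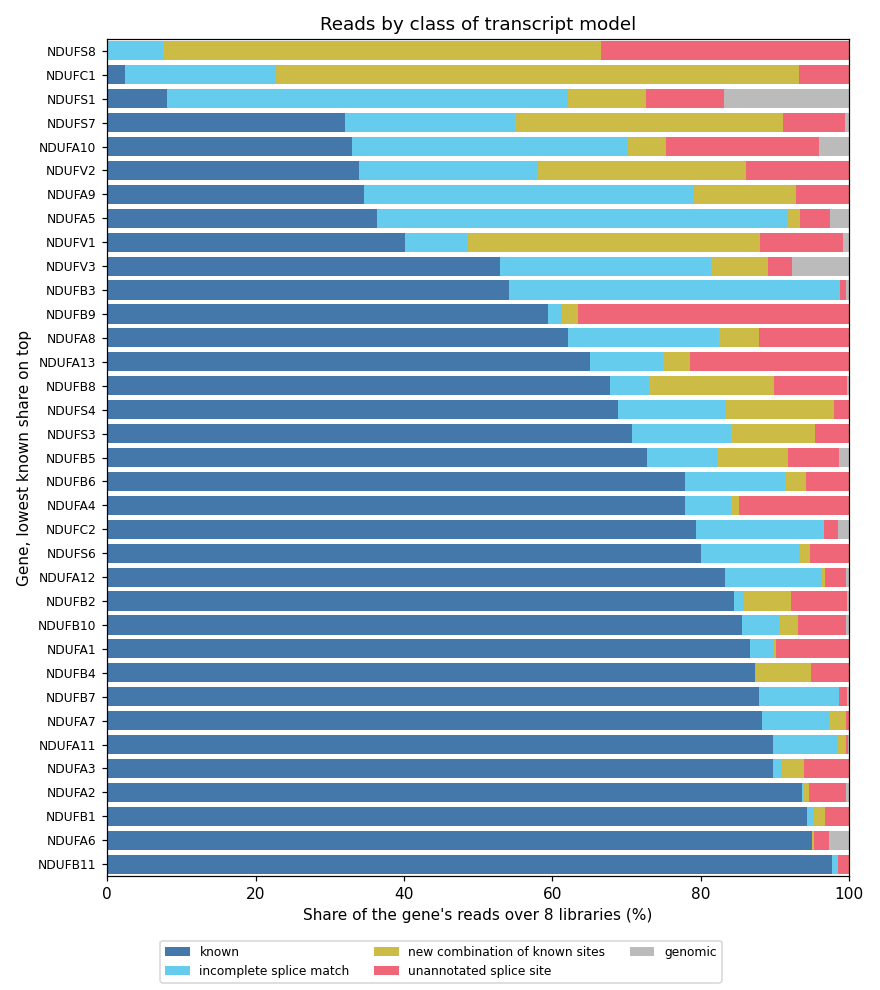
Share of each of 35 members' reads by class of transcript model, summed over the 8 libraries, with the lowest known share on top. NDUFS8 and NDUFC1 have almost no known (dark blue) share, and 26 genes have more than 50% known.

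NDUFS8 had reads on 86 models, of which the 2 most read held 29.9% and 24.6% of its reads. The 7-exon model of 733 bases, classed as having an unannotated splice site, held 43.9%, 45.1% and 58.8% of the gene's reads in GM12878, 26.6%, 18.1% and 28.0% in HepG2 and 29.2% and 29.4% in K562. The 6-exon model of 674 bases, a new combination, held 17.1%, 9.80% and 11.8% in GM12878, 27.3%, 30.1% and 19.7% in HepG2 and 30.8% and 28.8% in K562. GM12878 did not overlap the other lines for either model, and HepG2 and K562 overlapped for the 6-exon model. These shares rest on 109 reads of NDUFS8 in GM12878, 17 of them in the third library. In the test of model usage over all spliced models, added after seeing the data, NDUFS8 did not pass, with an adjusted p of 0.472 for HepG2 against GM12878, 1 for K562 against GM12878 and 0.656 for K562 against HepG2.

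**Figure D4:**
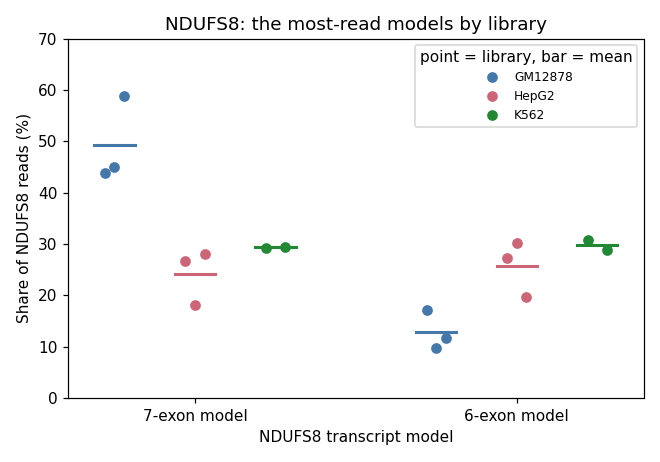
Share of NDUFS8 reads on its 2 most-read models, with 1 point per library and a bar at each line's mean. The GM12878 points lie above the other lines for the 7-exon model, from 43.9% to 58.8%, and below them for the 6-exon model, from 9.80% to 17.1%.

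The use of known transcripts within a gene could be tested for 22 members with edgeR's test of differential splicing (called at an adjusted p under 0.05 where shares shifted by 10 percentage points or more), and 0 were called, where 2.37% of 676 genes were called in any of the 3 comparisons (1.63% in HepG2 against GM12878, 0.592% in K562 against GM12878 and 0.888% in K562 against HepG2). Of the 66 tests, 2 had an unadjusted p under 0.05, for NDUFA4 and NDUFA12, and the lowest adjusted p was 0.107. Members with at least 30 known reads in every line and a difference of 10 percentage points or more between lines are given below with their values. For NDUFB11 and NDUFA12 the transcripts differ by a coding stretch that can be printed. NDUFB11-201 has 948 bases and NDUFB11-202 has 1388, and NDUFA12-201 has 635 and NDUFA12-206 has 487. The stretches are therefore only part of what differs between the transcripts. They are read 5′ to 3′ from GENCODE release 29 transcripts, with capitals for the stretch present in one transcript and absent from the other, and lower case for the 15 bases on either side.
NDUFB11-201: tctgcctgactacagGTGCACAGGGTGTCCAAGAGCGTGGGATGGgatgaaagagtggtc
NDUFA12-201: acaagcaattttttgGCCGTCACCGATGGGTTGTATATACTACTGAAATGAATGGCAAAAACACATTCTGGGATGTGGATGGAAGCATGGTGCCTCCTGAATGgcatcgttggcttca

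The NDUFB11 stretch has 30 bases, chrX:47142584-47142613 on the minus strand of GRCh38, and is a multiple of 3, so it leaves the reading frame intact. NDUFB11-201 contains it and NDUFB11-202 does not. NDUFB11-201 held 15%, 25.4% and 25% of known reads in GM12878, 18.1%, 22.2% and 16.2% in HepG2 and 32.4% and 29.7% in K562. Both K562 libraries were above the rest, with an adjusted p of 0.596 against HepG2 and 1 against GM12878.

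The NDUFA12 stretch is an exon of 88 bases, chr12:94994170-94994257 on the minus strand, which is not a multiple of 3. NDUFA12-206 skips it. This transcript had 0, 0 and 1 read in GM12878, 1, 0 and 2 in HepG2 and 3 and 8 in K562, which is 1.20%, 3.85% and 12.8% of the known reads of each line. The adjusted p was 0.500 for K562 against GM12878, from 11 reads in K562 and 1 in GM12878.

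NDUFB1-201, with 3 exons, held 41.9%, 40% and 71.4% of known reads in GM12878, 52.6%, 54.8% and 51.7% in HepG2 and 65.0% and 66.7% in K562, and the rest were on NDUFB1-203, annotated as a retained intron. The GM12878 value of 71.4% rests on 7 reads, and the adjusted p was 1 for K562 against GM12878 and 0.999 for K562 against HepG2. NDUFA2-201 held 81.3% of known reads in GM12878, 89.9% in HepG2 and 95.8% in K562, with an adjusted p of 0.879 for K562 against GM12878. NDUFB9-201 held 69.2%, 65.9% and 77.8%, with an adjusted p of 0.832 for K562 against HepG2.

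With incomplete matches or all spliced models included, 1 member was called, NDUFV2, a core subunit of the NADH-binding module, in K562 against HepG2 (adjusted p = 0.0195 over all spliced models). Of 1641 genes tested in this way 0.488% were called in that comparison, 0.853% in HepG2 against GM12878, 0.67% in K562 against GM12878 and 1.58% in any. The largest shift was that of the known transcript NDUFV2-201, from 34.8% of the tested reads in HepG2 to 47.6% in K562, with an unadjusted p of 0.339 of its own. The lowest unadjusted p, 7.11e-06, was that of a 3-exon model of 343 bases that matches the 3′ part of an annotated transcript, at 10.9% in HepG2 and 0% in K562. It had 4, 0 and 4 reads in GM12878, 4, 2 and 16 in HepG2 and 0 in both K562 libraries, so the third HepG2 library held most of its reads.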

How the data were processed

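Per the labels, the authors sequenced native RNA of GM12878, HepG2 and K562 on Oxford Nanopore instruments and deposited TALON abundance tables. The submitters' processing notes name minimap2 and the genome build hg38. In these deposited tables each transcript model has a raw read count per library, with its exon number and length as other values given by the authors. Versions are not given in the sources used here.

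Counts were summed per annotated gene and tested with edgeR 4.0.16 (quasi-likelihood, robust, TMM scaling, its default filter on low counts) in 1 fit of 8 libraries, with Benjamini-Hochberg adjustment over all 4778 genes. Usage was tested over known transcripts of 10 or more reads whose gene reached 10 known reads per line. The steps were also run on simulated data, and no result of that run is used here. Gene symbols and GENCODE release 29 identifiers matched. Members and lists were chosen with earlier results of these data known. Values are given for members called in any comparison, the 5 highest and the lowest by mean CPM. Members past the adjusted p but under the fold threshold were named beyond that rule, after their values were seen. In the usage results, the line total of known reads had to reach 30 and the shift 10 points. For classes the 3 highest and 3 of the lowest members with at least 100 reads are named. NDUFB9, NDUFS3, NDUFA10, NDUFA9 and NDUFA5 were added. The single values of 1 member, which stays in the counts and sums, are not reported here. Libraries of the same number did not vary together across lines (correlations of deviations from -0.054 to 0.038). No library was counted as a repeat of another. Intervals of depth cover counting error only.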

Additional observations from a re-analysis of the deposited data

How the results depend on the processing

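The 17 calls of single members were checked under alternatives of normalisation, filter, tool, model class, replicate block, fold threshold and left-out libraries. This gave 259 pairs of a call and an alternative, where each alternative was shared by several calls. The setting with no fold threshold could not lose a call. The sign changed in 0 of these pairs and the call was lost in 32, and 7 of the 17 calls held in every pair counted. Settings in which the member failed the filter are not counted. With known transcripts alone these were NDUFS1 in HepG2 against GM12878 and NDUFA5 in K562 against HepG2, both among the 7. With libraries of the compared lines only it was NDUFB5 in K562 against GM12878. The counts of members called varied more. With no fold threshold they were 15, 11 and 12 in HepG2 against GM12878, K562 against GM12878 and K562 against HepG2, in place of 7, 5 and 5, and 55.6%, 31.8% and 50.4% of all genes were then called. DESeq2 gave 3 in K562 against GM12878 (20.8% of all genes), and known transcripts alone gave 4 of 31 tested in HepG2 against GM12878 (45.7%). Library totals as the only scale, chosen after seeing the data, gave 8 in K562 against HepG2 (47.5%). Leaving out 1 library gave 5 to 8, 3 to 7 and 4 to 7 members, while 43.5% to 47.3%, 22% to 29.2% and 39.4% to 42.2% of all genes were called, and the lowest member count was in K562 against GM12878 without the second K562 library.

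With a replicate block the counts were 8, 6 and 5 (48.3%, 27% and 41.8% of all genes), and NDUFC2 in K562 against HepG2 was no longer called, at a log2 difference of -0.83. The numbers are shared only as labels, so the block is not taken as a pairing. Usage calls stayed at 0 under the block and each left-out library. They were 1 with incomplete splice matches and 1 with all spliced models, where 1.58% of all genes were called in any comparison. No share over all genes is given for the other settings, so their counts are not read as particular to the members.

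The known share moved by more than 1 SD as a mean of per-gene shares over the 34 members with 20 reads in every line, which changes both the averaging and the genes, in GM12878 (65.8%) and K562 (65.9%), and without genomic models in K562 (66.4%), where the SD of 2 libraries was 0.129. Members with few reads, such as NDUFA5 with 121 and NDUFB5 with 158, limit what small differences can show.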
